A study of Mus musculus with 6 samples.

Results

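The elastic fibre genes are 10 genes chosen by name for what their products do: elastin (Eln), fibrillin-1 (Fbn1), the microfibril-associated proteins Mfap4 and Emilin1, the fibulins Fbln1, Fbln2, Fbln5 and Efemp2, and the cross-linking enzymes Lox and Loxl1. All 10 were among the 23420 gene symbols of the count table and all 10 passed the filter on low counts. They were read in bulk RNA sequencing of 6 aortic roots, 3 labelled Sost+/+ and 3 labelled Sost-/-, from mice of C57BL6/J background. All mice were 12 months old, had eaten standard chow until 4 months of age and then a high-cholesterol diet for 8 months, so that the wild-type mice had the diet as well. The labels speak of a double knockout of Sost and do not describe the allele. They do not name animals either. A p-value here sets the difference between groups against the spread of roots within them, and part of that spread may be technical. Whether each root came from a separate animal cannot be read from the labels. The comparison asks how the libraries labelled Sost-/- differ from those labelled Sost+/+ under a diet that promotes valve disease.

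An elastic fibre has a core of elastin laid down on a scaffold of microfibrils, whose main protein is fibrillin-1. Tropoelastin, the soluble monomer, gathers at the cell surface, is brought to the microfibrils by fibulin-4 (the product of Efemp2) and fibulin-5, and is cross-linked there by copper-dependent lysyl oxidases. In the wall of the aorta these fibres form concentric sheets between layers of smooth muscle, and most of them are made early in life by smooth muscle cells and fibroblasts.

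Sost, the gene the study targets, was not lower in the libraries labelled Sost-/-. It had 354, 621 and 274 counts in Sost+/+ libraries 1 to 3 and 2284, 1063 and 513 in Sost-/- libraries 1 to 3, a log2 fold change of 1.56 (SE 0.48, edgeR adjusted p = 0.124). These counts cover the whole gene, and which part of it the allele removes is not given in the labels. The groups overlapped, with Sost+/+ library 2 at 15.8 CPM and Sost-/- library 3 at 12.2 CPM. The counts of the target gene therefore do not bear out the labels, and they cannot by themselves contradict them. Every direction below is for the libraries as labelled. Library totals ran from 37023586 to 48172863 counts. Smooth muscle and heart muscle markers differed between the same libraries. Of 15 smooth muscle markers, 11 rose and 0 fell, with a median log2 fold change of 1.39, and their summed level was 1737 to 3306 CPM (counts scaled to library size, with TMM scaling) in Sost+/+ and 4922 to 7091 CPM in Sost-/- libraries. The count of 11 became 0 without Sost+/+ library 1 or Sost-/- library 3 and 1 without Sost+/+ library 3, with medians of 1.25, 1.27 and 1.20. Of all genes tested, 385 passed with all libraries, and 0, 10 and 118 passed without these libraries, in the same order. None of 16 cardiomyocyte markers passed the edgeR test, and DESeq2 called 10 of them lower. Their median was -0.41 and their summed level 99039 to 109243 CPM against 68986 to 84879 CPM. Of the 16, 2 had positive log2 fold changes, Myl4 (0.65, SE 0.54) and Myl7 (0.46, SE 0.54), both with wide spread within the groups. No marker of either list was at 0. Of 14 fibroblast, 10 endothelial and 10 macrophage markers 0 passed, with medians of 0.22, -0.055 and 0.062. Of 8 adipocyte and 8 Schwann cell markers 0 passed either, but all had positive log2 fold changes, with medians of 1.27 and 0.42. Of 9 tested markers of chondrocyte-like and valve interstitial cells 1 rose, the cartilage proteoglycan gene Acan (2.20, SE 0.38), and 8 were positive, with a median of 0.62. These counts are from edgeR, which called 2.18% of all genes tested higher and 0.371% lower. Of 14836 genes, DESeq2 called 753 higher and 408 lower. DESeq2 called 3 fibroblast markers higher and 1 lower. It also called 1 macrophage, 2 Schwann cell and 3 chondrocyte-like and valve interstitial markers higher, and 0 endothelial and 0 adipocyte markers. In bulk tissue fewer cells of a type and less RNA per cell cannot be told apart, and the part of these cell types in the results below was not tested.

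In the libraries labelled Sost-/-, Fbln5 and Efemp2 rose, by 1.86-fold and 1.51-fold, and no elastic fibre gene fell. Lox, Mfap4 and Eln had fold changes of 1.41, 1.45 and 1.5 that did not pass the test. Fbn1, Fbln1, Fbln2, Emilin1 and Loxl1 lay between 0.886-fold and 1.16-fold, none of them past the test. Of all 15096 genes tested, 2.55% changed, 2.18% higher and 0.371% lower, and the 2 of 10 members stand beside those shares. The 10 genes had a median log2 fold change of 0.36, and all tested genes one of 0.0066. In 4 of the 10 genes all Sost-/- libraries lay above all Sost+/+ libraries, namely Fbln5, Efemp2, Lox and Mfap4, and in 0 genes below. The count of 2 called genes became 0 without Sost+/+ library 1, Sost+/+ library 3 or Sost-/- library 3 and 1 without Sost-/- library 2. It stayed at 2 without Sost+/+ library 2, but these were Fbln5 and Eln, as Efemp2 lost its call there. Of all genes tested, 385 passed with all libraries. That number was 0, 118 and 10 without Sost+/+ library 1, Sost+/+ library 3 or Sost-/- library 3. Over all tested genes 25.4% did not overlap, 14.3% higher and 11.1% lower.

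**Figure D1:**
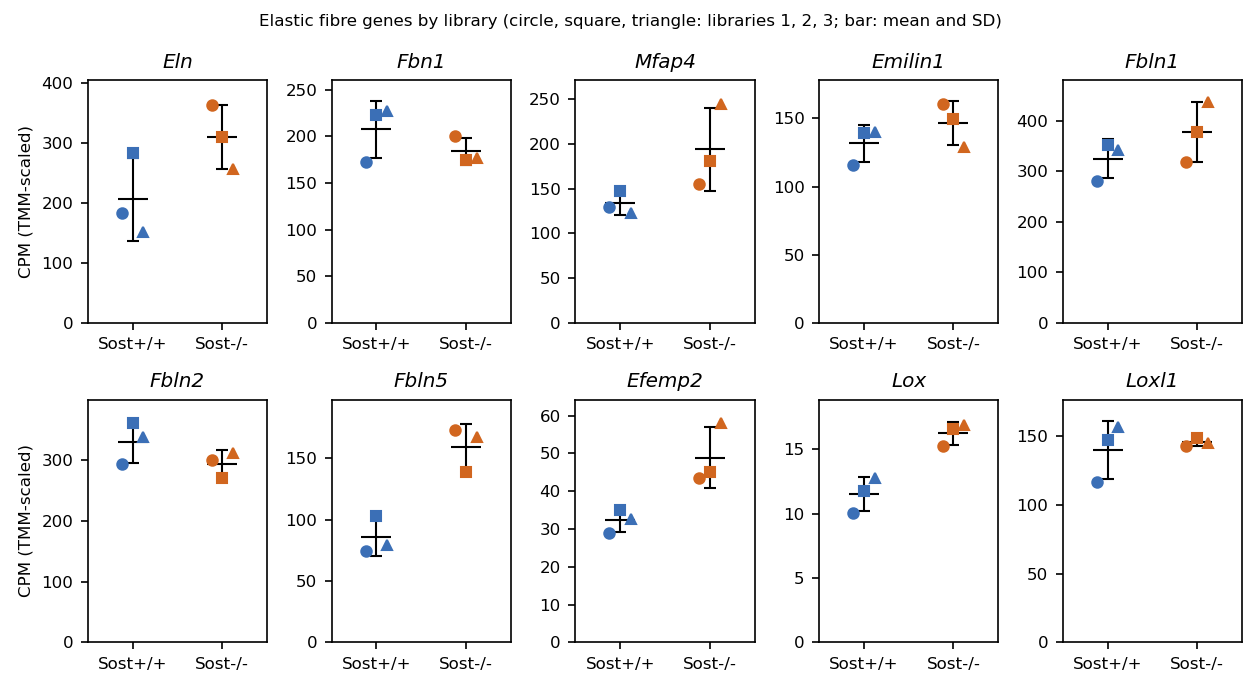
Levels in CPM (TMM-scaled, linear axes from 0) of the 10 elastic fibre genes in each library, with Sost+/+ in blue and Sost-/- in orange. Circles, squares and triangles are libraries 1, 2 and 3, and black bars give mean and SD (n = 3). In Fbln5, Efemp2, Lox and Mfap4 the groups do not overlap, and in the other 6 genes they do.

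Fbln5 encodes fibulin-5, which binds tropoelastin, lysyl oxidase-like 1 and integrins and links growing elastic fibres to cells. The gene (ENSMUSG00000021186.9 in GENCODE M21) spans chr12:101746565-101819055, minus strand, in build GRCm38, which is mm10. Its level was 74.7, 103 and 79.2 CPM in Sost+/+ libraries 1 to 3 and 173, 139 and 167 CPM in Sost-/- libraries 1 to 3. All Sost-/- libraries were above all Sost+/+ libraries, and Sost+/+ library 2 was the highest of its group. The means were 85.7 ± 15.3 and 159 ± 18.3 CPM (SD, n = 3). Its log2 fold change was 0.90 (SE 0.14, edgeR adjusted p = 0.0192). Without Sost+/+ library 1, Sost+/+ library 3 or Sost-/- library 3 the call ended (edgeR adjusted p = 0.114, 0.0549 and 0.0846), while the log2 fold change stayed at 0.79, 0.83 and 0.86. Of all genes tested, 0, 118 and 10 passed without these libraries. With the smooth muscle score as a covariate, where 0 of all 15096 genes passed, the log2 fold change was 0.25 (SE 0.25, edgeR adjusted p = 0.9997). With the cardiomyocyte score it was 1.39 (SE 0.15, edgeR adjusted p = 0.00629).

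Efemp2 encodes fibulin-4, which is needed for elastic fibre assembly and helps to activate lysyl oxidase. It spans chr19:5473954-5482517, plus strand (ENSMUSG00000024909.15), and 4.57% of its exon bases are also exons of Mus81 on the other strand. Its level was 29.1, 35.1 and 32.7 CPM in Sost+/+ libraries 1 to 3 and 43.4, 45.2 and 58.1 CPM in Sost-/- libraries 1 to 3. The groups did not overlap, and Sost-/- library 3 stood above the other two of its group. The means were 32.3 ± 3.02 and 48.9 ± 8.00 CPM (SD, n = 3). Its log2 fold change was 0.60 (SE 0.13, edgeR adjusted p = 0.0457). This call lay close to the threshold. It ended when any library but Sost-/- library 1 was left out, while the log2 fold change stayed between 0.46 and 0.68. The edgeR adjusted p ran from 0.069 to 0.171 without Sost+/+ library 1, 2 or 3 or Sost-/- library 2 or 3. Of all genes tested, 0, 275 and 118 passed without Sost+/+ library 1, 2 or 3. Without Sost-/- library 2 or 3 the numbers were 218 and 10. The Efemp2 call also ended with the smooth muscle covariate (log2 fold change 0.17, edgeR adjusted p = 0.9997), where 0 of all 15096 genes passed. With the cardiomyocyte covariate it ended too (0.84, edgeR adjusted p = 0.125).

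The sequence just before a gene's start is shown for both risen fibulin genes and, beside them, for Fbln1, a gene of the same family that did not pass. Each line holds 250 bases upstream of a RefSeq start (GRCm38.p6), 5′ to 3′ on the gene's strand, in windows that hold no exon base in GENCODE M21. RefSeq promoters were matched for 6 of the 10 genes. Capitals mark the GC box GGGCGG, a motif bound by Sp factors, on either strand, and the E-box CACGTG.

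Fbln5, chr12:101819120-101819369, minus strand: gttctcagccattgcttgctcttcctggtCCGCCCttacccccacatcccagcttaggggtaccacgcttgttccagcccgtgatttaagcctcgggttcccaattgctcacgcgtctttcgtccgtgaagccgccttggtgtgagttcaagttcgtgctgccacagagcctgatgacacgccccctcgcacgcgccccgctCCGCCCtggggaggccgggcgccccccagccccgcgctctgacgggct
Efemp2, chr19:5473696-5473945, plus strand: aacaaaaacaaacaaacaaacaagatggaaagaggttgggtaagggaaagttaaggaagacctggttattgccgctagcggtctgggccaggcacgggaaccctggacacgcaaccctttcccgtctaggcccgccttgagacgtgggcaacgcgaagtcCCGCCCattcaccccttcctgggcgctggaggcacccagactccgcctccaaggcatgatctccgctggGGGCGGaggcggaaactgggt
Fbln1, chr15:85205699-85205948, plus strand: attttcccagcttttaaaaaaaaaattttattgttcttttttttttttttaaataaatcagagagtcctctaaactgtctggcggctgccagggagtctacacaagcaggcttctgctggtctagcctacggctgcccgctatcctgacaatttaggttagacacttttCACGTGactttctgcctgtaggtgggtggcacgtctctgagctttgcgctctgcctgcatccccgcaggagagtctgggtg

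The GC box was found at 2 places in the Fbln5 window and at 2 in the Efemp2 window, on either strand, and at 0 in this Fbln1 window, which holds 1 CACGTG. Other RefSeq starts of these genes have windows that touch exons, and there the GC box was found at 0 places for Fbln5, at 5 in each of 2 overlapping windows for Efemp2 and at 1 for Fbln1. The windows of Fbln2 and Fbn1, which did not pass, held 1 each and that of Emilin1 held 0. Of 32851 promoter windows of the same length, 32.7% held GGGCGG and 6.02% held CACGTG on either strand. The TATA box TATAAA was at 0 places in these 3 windows (12.4% of all windows hold it), as was the TEAD motif CATTCC (12.6%). The AP-1 motif TGANTCA (6.75% of all windows) and the CArG box (1.47%) were also at 0 places there, both strands being searched. The windows were 65.2%, 59.2% and 46.4% G or C for Fbln5, Efemp2 and Fbln1, and the median of all windows was 52.4%. These matches describe letters, not bound sites.

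Eln, the gene of tropoelastin, spans chr5:134702593-134747323, minus strand (ENSMUSG00000029675.12). Its level was 183, 284 and 152 CPM in Sost+/+ libraries 1 to 3 and 364, 311 and 257 CPM in Sost-/- libraries 1 to 3. The groups overlapped, because Sost+/+ library 2 was above Sost-/- library 3. The means were 206 ± 69.1 and 311 ± 53.8 CPM (SD, n = 3), and the log2 fold change of 0.59 (SE 0.22, 95% interval 0.093 to 1.09) did not pass (edgeR adjusted p = 0.183). Eln had the widest spread of the 10 genes in the Sost+/+ group, with a coefficient of variation of 33.5%, where the other 9 had 9.35% to 17.8%. Leaving out Sost+/+ library 2 brought it past the threshold (log2 fold change 0.89, edgeR adjusted p = 0.0466). With the smooth muscle covariate its sign turned, to -0.21 (SE 0.43).

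Fbn1, the fibrillin gene of the microfibril scaffold, was at 173, 223 and 227 CPM in Sost+/+ libraries 1 to 3 and at 200.2, 175 and 177 CPM in Sost-/- libraries 1 to 3. The ranges overlapped, and the log2 fold change was -0.17 (95% interval -0.45 to 0.10, edgeR adjusted p = 0.457). Of its exon bases, 20.1% are shared with a gene model on the other strand, which is not among the symbols of the count table. The strand setting of the counting is not given in the sources used here. Mfap4, which encodes a microfibril-associated glycoprotein, was at 130, 148 and 123 CPM in Sost+/+ and at 156, 181 and 245 CPM in Sost-/- libraries. The groups did not overlap, but the Sost-/- libraries were spread widely, with library 3 far above library 1. Its log2 fold change of 0.54 (SE 0.16, 95% interval 0.18 to 0.90) did not pass in edgeR (adjusted p = 0.115) and passed in DESeq2 (adjusted p = 0.0196). With the smooth muscle covariate it was -0.079. Emilin1, which encodes a glycoprotein at the border of elastin and microfibrils, was at 116 to 140 CPM in Sost+/+ and 129 to 161 CPM in Sost-/- libraries (log2 fold change 0.15, 95% interval -0.10 to 0.41).

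The remaining fibulin genes did not pass. Fbln1, whose product is found in the elastin core and in basement membranes, was at 281 to 351 CPM in Sost+/+ and 318 to 437 CPM in Sost-/- libraries, with a log2 fold change of 0.22 (95% interval -0.10 to 0.53). Fbln2, whose product binds fibrillin and tropoelastin, was at 293, 361 and 338 CPM in Sost+/+ libraries 1 to 3 and at 301, 270.2 and 312 CPM in Sost-/- libraries 1 to 3. The log2 fold change of Fbln2 was -0.17 (95% interval -0.42 to 0.083), and its ranges overlapped. The intervals of Fbn1, Fbln1, Fbln2, Emilin1 and Loxl1 end below the lower bound of Fbln5, which was 0.58.

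Neither cross-linking enzyme passed the test. Lox, the gene of lysyl oxidase, was at 10.1, 11.7 and 12.7 CPM in Sost+/+ libraries 1 to 3 and at 15.2, 16.6 and 16.9 CPM in Sost-/- libraries 1 to 3. The groups did not overlap and the spread within each was small, at 11.5 ± 1.35 and 16.2 ± 0.884 CPM (SD, n = 3). The log2 fold change of 0.50 (SE 0.12, 95% interval 0.23 to 0.76) did not pass in edgeR (adjusted p = 0.0661), and it passed in DESeq2 (adjusted p = 0.0140) and in edgeR with no filter on low counts (adjusted p = 0.0487). With the smooth muscle covariate Lox stood at 0.52 (SE 0.30) and with the cardiomyocyte covariate at 0.57 (SE 0.22), close to its value without them but not past the test. Loxl1, which encodes a lysyl oxidase that fibulin-5 brings to elastic fibres, was at 117, 147 and 157 CPM in Sost+/+ and at 143, 149 and 145 CPM in Sost-/- libraries. The Sost-/- libraries lay inside the Sost+/+ range, and the log2 fold change was 0.054 (95% interval -0.21 to 0.31, edgeR adjusted p = 0.831). Without Sost+/+ library 1 it was -0.077.

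**Figure D2:**
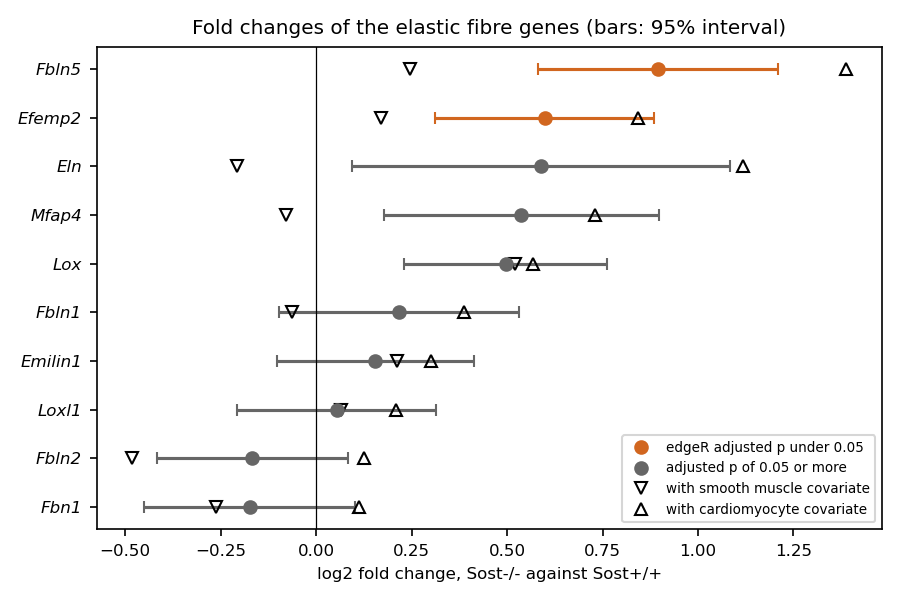
Log2 fold changes of the 10 elastic fibre genes, Sost-/- against Sost+/+, as circles with 95% intervals from the edgeR fit (orange where the adjusted p is under 0.05). Open triangles give the same fold change with the smooth muscle covariate (pointing down) or the cardiomyocyte covariate (pointing up): for Fbln5 they lie at 0.25 and 1.39, for Lox at 0.52 and 0.57.

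DESeq2 called 4 of the 10 genes higher and 0 lower, where it called 5.08% of 14836 genes higher. These were Fbln5, Efemp2, Lox and Mfap4. With the smooth muscle covariate 0 of the 10 genes passed in edgeR, as 0 of all 15096 genes did (409 at an unadjusted p under 0.05), and their median was -0.00017, and with the cardiomyocyte covariate Fbln5 alone passed. Neither score overlaps between the groups (6.02 to 6.84 against 7.37 to 7.89 mean log2 CPM for smooth muscle, 11.60 to 11.85 against 11.34 to 11.52 for cardiomyocytes), so values with a covariate reach beyond the libraries measured.

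Ratios of members within a library do not depend on library scaling. They are given here as values, since none passed a test adjusted over the pairs. For Fbln5 against Fbln2 there were 0.255, 0.285 and 0.235 reads per Fbln2 read in Sost+/+ libraries 1 to 3 and 0.574, 0.513 and 0.536 in Sost-/- libraries 1 to 3. The ratio was 2.10-fold higher in the Sost-/- libraries, and the groups were far apart relative to their spread (log2 difference 1.07, pooled SD 0.12, exact two-sided permutation p = 0.1). For Fbln5 against Fbn1 the ratio was 0.433, 0.463 and 0.349 in Sost+/+ and 0.862, 0.792 and 0.946 in Sost-/- libraries (log2 difference 1.07, pooled SD 0.18). Efemp2 against Fbln2 was nearly constant in Sost+/+ libraries, at 0.0993, 0.0971 and 0.0970, and was 0.144, 0.167 and 0.186 in Sost-/- libraries. Lox against Loxl1 was 0.0864, 0.0796 and 0.0811 in Sost+/+ and 0.106, 0.112 and 0.116 in Sost-/- libraries, a 1.35-fold higher ratio with no overlap (log2 difference 0.44, pooled SD 0.062). Eln against Fbn1 was 1.06, 1.27 and 0.669 in Sost+/+ and 1.82, 1.78 and 1.45 in Sost-/- libraries.

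**Figure D3:**
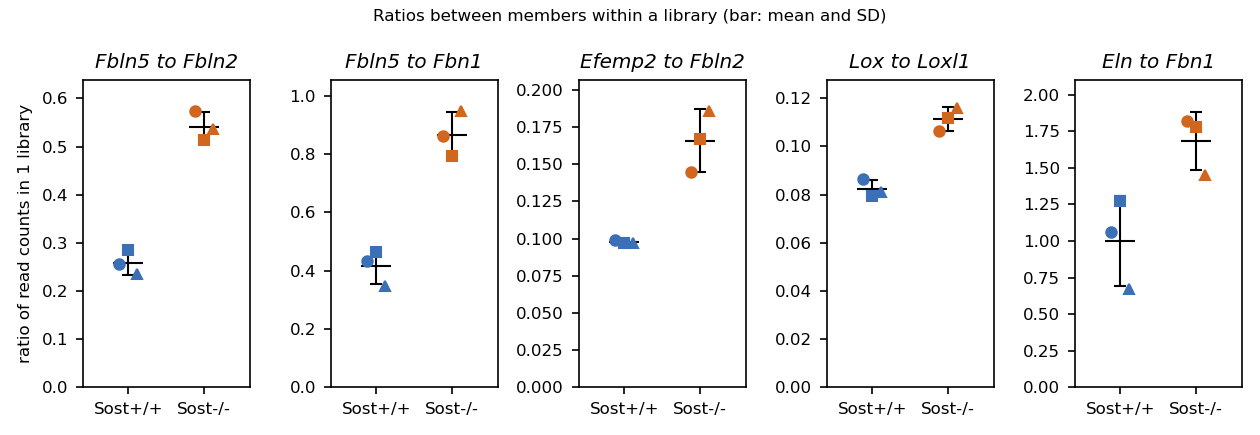
Ratios of read counts between 2 elastic fibre genes within each library (linear axes from 0), Sost+/+ in blue and Sost-/- in orange, with mean and SD (n = 3). No pair shown overlaps between the groups, and Fbln5 to Fbln2 has means of 0.258 and 0.541.

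Of the 45 pairs of members, 23 had ratios that did not overlap between the groups, against 25% of the pairs of all genes with counts in every library. The 45 pairs are built from 10 genes, each in 9 pairs. They are not independent and in part repeat the changes of single genes. The smallest exact p that 3 against 3 libraries allow is 0.1, and the smallest p adjusted over the 45 pairs was 0.196, so none passed. All pairs were computed, and the pairs named were picked after their values were seen. Of the 23 pairs, Fbn1 was in 7 and Fbln2 in 6, each time as the gene with the lower change, and Fbln5, Efemp2 and Lox were each in 5, as the gene with the higher change. Against Eln, 2 of the 9 others had ratios without overlap, Fbn1 and Fbln2, both lower, where 23.6% of all genes had a lower ratio to Eln without overlap (0.578-fold each, exact two-sided permutation p = 0.1, 0.45 adjusted over the 9 ratios). For Fbln5 against Eln the ratio was 0.408, 0.363 and 0.521 in Sost+/+ and 0.474, 0.446 and 0.651 in Sost-/- libraries, which overlap (exact two-sided permutation p = 0.4).

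Per exon length, Fbln1 and Mfap4 were the most abundant and Lox the least. In RPKM (CPM per kilobase of exon in GENCODE M21), the Sost+/+ means were 74.4 ± 8.75 for Fbln1, 69.4 ± 6.70 for Mfap4, 51.9 ± 5.46 for Fbln2 and 42.6 ± 6.42 for Loxl1 (SD, n = 3). Emilin1 followed with 26.7 ± 2.77, Eln with 25.5 ± 8.53, Fbn1 with 17.1 ± 2.49 and Fbln5 with 12.4 ± 2.21 RPKM. Efemp2 had 8.53 ± 0.797 and Lox 2.41 ± 0.282 RPKM. The ranges of Fbln1 and Mfap4, Fbln2 and Loxl1, Emilin1 and Eln, and Fbn1 and Fbln5 overlapped within each pair. Fbln2 was nonetheless above Loxl1, and Fbn1 above Fbln5, in 3 of 3 Sost+/+ libraries, whereas Fbln1 was above Mfap4, and Emilin1 above Eln, in 2 of 3. In the Sost-/- libraries Mfap4 (100.8 ± 24.0 RPKM) and Fbln1 (86.4 ± 13.6) led with overlapping ranges, Mfap4 being above Fbln1 in 3 of 3 libraries, and Fbln5 (23.1 ± 2.65) stood above Fbn1 (15.2 ± 1.16) with no overlap.

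The summed level of the 10 genes was 331 ± 36.5 RPKM in Sost+/+ and 400.1 ± 31.4 RPKM in Sost-/- libraries (SD, n = 3). The groups did not overlap but lay close, with 367 RPKM in Sost+/+ library 2 and 378 RPKM in Sost-/- library 1. Of all single genes tested, 14.3% were higher without overlap. As a share of reads they took 0.130%, 0.174% and 0.158% in Sost+/+ libraries 1 to 3 and 0.192%, 0.189% and 0.207% in Sost-/- libraries 1 to 3. The lowest share was in Sost+/+ library 1, and the groups did not overlap (exact two-sided permutation p = 0.1). Within the summed RPKM, Fbln5 went from 3.73% ± 0.308 to 5.78% ± 0.735, Efemp2 from 2.58% ± 0.0502 to 3.21% ± 0.265 and Lox from 0.730% ± 0.0686 to 0.850% ± 0.0459 (SD, n = 3). The shares of Fbln2 (15.7% ± 0.265 to 11.6% ± 0.805), Fbn1 (5.16% ± 0.423 to 3.81% ± 0.517) and Loxl1 (12.9% ± 1.32 to 11.1% ± 0.862) were lower without overlap. Shares of a sum depend on each other, and these are given as a description.

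**Figure D4:**
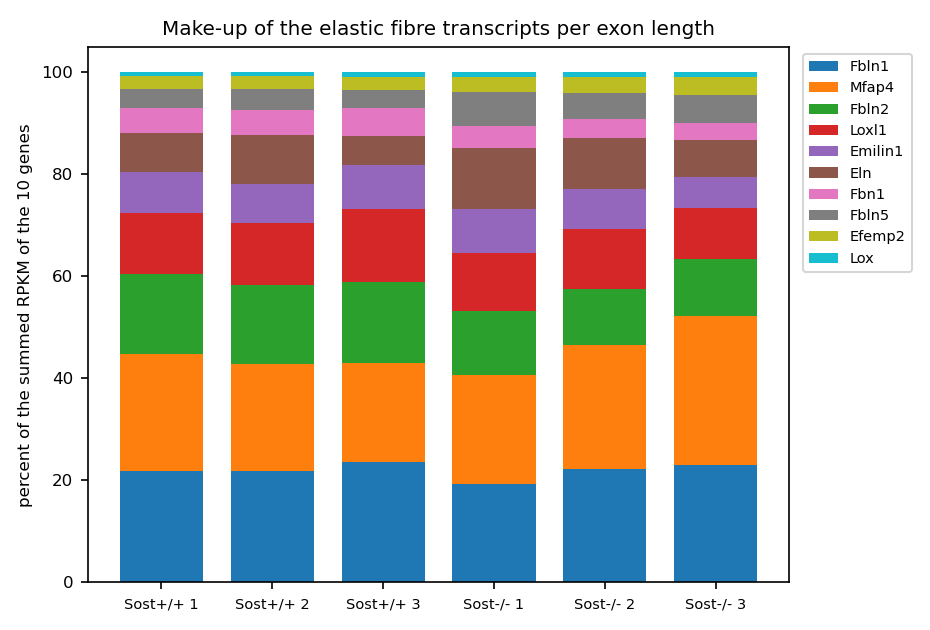
Make-up of the summed RPKM of the 10 elastic fibre genes in each library, as stacked percentages. Fbln2 takes 15.5% to 16.0% of the bar in Sost+/+ and 11.0% to 12.5% in Sost-/- libraries, and Fbln5 3.46% to 4.07% and 5.19% to 6.60%.

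Set against the smooth muscle markers, whose own sum was higher in the libraries labelled Sost-/-, all 10 genes had lower ratios there. The groups did not overlap for any of the 10 ratios (exact two-sided permutation p = 0.1 each, 0.1 adjusted over the 10). The same was so for 87.7% of 15072 tested genes outside the marker list, so the count is near the background. All 10 ratios share 1 denominator per library. The order of their differences thus follows from the members' own changes and is no separate result. For Eln there were 0.0876, 0.0859 and 0.0875 reads per smooth muscle marker read in Sost+/+ libraries 1 to 3, nearly the same value in each, and 0.0621, 0.0631 and 0.0362 in Sost-/- libraries 1 to 3. For Fbln5 there were 0.0357, 0.0312 and 0.0456 in Sost+/+ and 0.0294, 0.0281 and 0.0236 in Sost-/- libraries, the smallest of the 10 differences (0.727-fold). Fbn1 (0.346-fold) and Fbln2 (0.347-fold) had the largest. In CPM, Eln and the smooth muscle sum were both highest in library 2 of the Sost+/+ group, whereas in the Sost-/- group Eln was lowest in library 3, where the smooth muscle sum was highest.

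**Figure D5:**
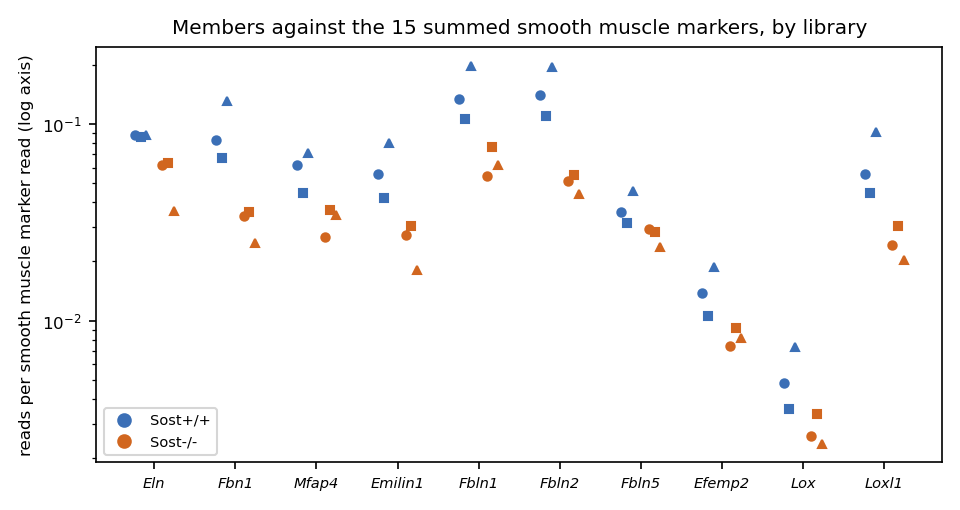
Reads of each elastic fibre gene per read of the 15 summed smooth muscle markers in each library (log axis), Sost+/+ in blue and Sost-/- in orange, with circles, squares and triangles for libraries 1, 2 and 3. The ratios of all 10 genes are lower in Sost-/- libraries, as are those of 87.7% of genes, and the marker sum itself is higher there. They run from 0.346-fold for Fbn1 to 0.727-fold for Fbln5.

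Other genes of elastic fibre biology were read from 7 lists with 75 genes, of which 72 were tested. Of these, 12 rose and 0 fell, beside 2.18% and 0.371% of all genes, with a median log2 fold change of 0.17. The count of 12 became 0 without Sost+/+ library 1, 2 without Sost+/+ library 3 and 1 without Sost-/- library 3, and 8 without any other single library. Of all genes tested, 0 passed without Sost+/+ library 1, 118 without Sost+/+ library 3 and 10 without Sost-/- library 3. Among 15 tested microfibril and elastic fibre proteins 2 rose and 0 fell. Efemp1, the gene of fibulin-3, went from 35.2 ± 4.06 to 59.2 ± 6.84 CPM (SD, n = 3, log2 fold change 0.75, SE 0.12, edgeR adjusted p = 0.0192), and the EMILIN family gene Mmrn1 from 32.7 ± 3.61 to 45.7 ± 0.791 CPM (0.48, SE 0.10). The second fibrillin gene, Fbn2, had a log2 fold change of -0.62 (SE 0.48), and the microfibril glycoprotein genes Mfap2 and Mfap5 had 0.44 and -0.21, all 3 without passing. Fbn2 was at 7.40, 9.69 and 7.19 CPM in Sost+/+ and at 2.15, 10.5 and 3.20 CPM in Sost-/- libraries 1 to 3. Without Sost-/- library 2, 1 gene of this list was called lower, and the lowest log2 fold change of the list was -1.60. Of 4 latent TGF-beta binding proteins, which sit on microfibrils, 2 rose and 0 fell, Ltbp1 (0.68, SE 0.14) and Ltbp3 (0.48, SE 0.10).

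Of 9 further lysyl oxidases and genes that activate or load them, 1 rose and 0 fell. This was Tll1, which encodes a tolloid protease, from 1.37 ± 0.424 to 3.09 ± 0.0577 CPM (log2 fold change 1.17, SE 0.25, edgeR adjusted p = 0.0487). Loxl2, Loxl3 and Loxl4 had log2 fold changes of -0.28, -0.091 and 0.15 and did not pass. Of 10 ADAMTS and ADAMTS-like genes of microfibrils, 2 rose and 0 fell. Thsd4, whose product binds fibrillin-1, went from 13.0 ± 2.19 to 34.1 ± 11.3 CPM (1.39, SE 0.23), and Adamts10 from 93.5 ± 6.80 to 132 ± 13.1 CPM (0.50, SE 0.10).

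Of 11 tested proteases that can cut elastin or its scaffold, 2 rose and 0 fell. Mmp3 was at 21.4, 34.0 and 24.8 CPM in Sost+/+ and at 70.6, 105 and 82.8 CPM in Sost-/- libraries (log2 fold change 1.69, SE 0.19, edgeR adjusted p = 0.0119). Mmp9, a gelatinase gene, was lower in level, at 3.70, 4.63 and 3.13 CPM against 8.65, 8.14 and 9.43 CPM (1.19, SE 0.17). The macrophage elastase gene Mmp12 and the cathepsin genes Ctsk and Ctss had log2 fold changes of -0.047, -0.013 and -0.36 and did not pass. Of 9 inhibitors, Serpine2 rose (0.54, SE 0.10) and 0 fell. Of 14 receptor genes for elastin, fibrillin and fibulins, 2 rose and 0 fell, the integrin subunit genes Itga8 (2.20, SE 0.33) and Itgb3 (0.70, SE 0.12). With the smooth muscle covariate 0 of these 12 genes passed, as 0 of all genes did. All 12 kept a positive log2 fold change there, but only 1 of them, Tll1 (1.48, SE 0.65), was at least as large as without the covariate. Mmp3 had 1.34 (SE 0.43), Thsd4 0.27 (SE 0.43), Itga8 0.29 (SE 0.32) and Ltbp1 0.13 (SE 0.31). The 12 had been picked because they rose without the covariate.

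Among 11280 other genes with a mean of at least 5 CPM, those whose log2 CPM over the 6 libraries, centred per gene, lay closest to Fbln5 included Anln and Cspg4. Their root mean square differences from it were 0.0193 and 0.085 on the log2 scale. Anln encodes the actin-binding protein anillin and Cspg4 the NG2 proteoglycan of mural cells. Closest to Efemp2 were Sfxn2, Pcyox1l and Cdon (0.0396, 0.0406 and 0.0548). Closest to Eln were Ccbe1, C1qtnf2 and Klhl4, with larger differences of 0.178, 0.178 and 0.179. Of the other members, Fbln5 was nearest to Eln (0.268), Efemp2 to Fbln5 (0.228) and Mfap4 to Efemp2 (0.107). Distances over 6 libraries in 2 groups are mostly set by the group difference and are given as a description.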

How the data were processed

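RNA of 6 aortic roots was sequenced from directional libraries, per the labels' protocols. The authors deposited whole-number read counts per gene symbol. They also deposited a normalized signal, which equals the counts divided by 1 factor per library. DRAGEN, HTSeq, DESeq2 and mm10 appear in the submitters' processing notes, with no version. The annotation and the strand setting of the counting were not stated there. Groups came from the genotype label, and replicates were numbered in accession order.

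Genes were kept with filterByExpr (minimum count 10, minimum total 15), TMM-scaled and compared with the quasi-likelihood test of edgeR 4.0.16 under R 4.3.3. Benjamini-Hochberg adjustment ran over 15096 genes, with a threshold of 0.05. The SE is the absolute log2 fold change over the square root of F. For single values the test was an exact permutation test, two-sided (SciPy 1.17.1). The edgeR fit was checked on simulated counts. Scores are mean log2 CPM (prior count 2) of a marker list. Alternatives used DESeq2 1.42.0, limma 3.58.1, other scalings and filters, covariates, the deposited normalized values (pseudocount 1) and each library left out. Exon lengths come from GENCODE M21. One macrophage marker was matched by an older symbol.

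Named were all 10 members, Sost, and of each related list the members that passed (at most 4 by p). For Eln and each member that passed, the 3 genes most alike were added, of which 1 is not reported here. Related genes beyond this rule were chosen after their values were seen. The members, lists and tests were chosen with earlier results of these data known.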

Additional observations from a re-analysis of the deposited data

How the results depend on the processing

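Genes called higher numbered 329 and lower 56. DESeq2 called 753 and 408 (1161 in all), of which 64.9% were higher against 85.5% in edgeR, and edgeR with no filter called 92 lower. Adding the smooth muscle score left 0 higher and 0 lower (409 at an unadjusted p under 0.05), and adding the cardiomyocyte score left 162 and 15 (177 in all). With 1 library left out, 0 to 313 genes were higher and 0 to 37 lower, 0 to 349 in all (0 without Sost+/+ library 1, where 2262 had an unadjusted p under 0.05, 10 without Sost-/- library 3, 118 without Sost+/+ library 3 and 218 without Sost-/- library 2). Of the 10 elastic fibre genes, 2 were higher, 4 by DESeq2, 0 given the smooth muscle score and 1 given the cardiomyocyte score, and 0 to 2 with 1 library left out. Over the related lists 12 were higher, 0 and 5 with those scores and 0 to 8 with 1 library left out, and 0 lower, 0 to 1 with 1 left out. Signs turned with the smooth muscle covariate for Eln (-0.21), Fbln1 (-0.064) and Mfap4 (-0.079), with the cardiomyocyte covariate for Fbn1 (0.11) and Fbln2 (0.13), and for Loxl1 without a library (-0.077 to 0.13). With 1 library left out the log2 difference of the ratio to Eln ran from -0.30 to 0.17 for Efemp2, from -0.42 to 0.16 for Mfap4 and from -0.36 to 0.15 for Lox. The cause of these changes was not tested. No paired analysis was possible because the replicate numbers were given in accession order and the labels name no pairs.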
